A study of Mus musculus with 53 samples.

Results

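The genes that drive cells through division were followed in sciatic nerve (SCN) of mice on a standard diet (SD), of 2 diet-induced disease models, and of both models after dietary reversal (DR). The set holds 36 proliferation genes, taken by symbol from a list, out of 49568 genes listed in each of 53 RNA-seq samples. The list was chosen with earlier results of these data known. All 36 symbols were found, and all 36 had a mean log2 value of at least 3.32 (10 on the linear scale), the minimum for testing, in each comparison. SD mice were sampled at 16 weeks (n = 5) and 24 weeks of age (n = 8). HFD mice, the prediabetic model, ate a high-fat diet with 60% of kcal from fat from 5 weeks of age and were sampled at 16 weeks (n = 7) and 24 weeks (n = 7). HFD-STZ mice, the T2D model, ate the same diet and at 12 weeks of age also received streptozotocin (STZ), a toxin of pancreatic beta cells, at 75 mg/kg and then at 50 mg/kg 3 days later. They were sampled at 16 weeks (n = 5) and 24 weeks (n = 8). HFD-DR (n = 7) and HFD-STZ-DR mice (n = 6) were moved at 16 weeks from the high-fat to the control diet, for which the series text gives 13% of kcal from fat and the study's methods a lower figure, and were sampled 8 weeks later, at 24 weeks of age. All groups were male C57BL/6J mice without a transgene, and the STZ arm carries both the diet and the toxin, so no group received STZ on the control diet alone.

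The cell cycle is run by cyclins that switch cyclin-dependent kinases on and off in turn. E-type cyclins open DNA synthesis, which needs the MCM helicase, the sliding clamp PCNA and a supply of nucleotides, while cyclins A and B with Cdk1 bring cells into mitosis, where Aurora and Polo kinases, kinesins and a checkpoint sort the chromosomes before the anaphase-promoting complex ends the phase. In the uninjured adult nerve Schwann cells rest outside the cycle and return to it after injury, while endothelial cells, fibroblasts and blood-derived cells of the nerve can also divide. The values come from whole nerve, in which fewer cells of a type and less RNA per cell cannot be told apart.

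The tissue label was checked against Schwann cell markers, among them the myelin genes Mbp, Pmp22 and Prx, the transcription factor gene Sox10, S100b and Ncam1. Each of these was listed and reached the minimum. Correlations between samples ran from 0.916 to 0.994, and 0 pairs of samples were identical. A pair of libraries stood apart in neutrophil genes. Replicate 7 of HFD at 24 weeks had a Ly6g value of 7.34 and replicate 4 of HFD at 16 weeks of 6.76, against 3.81 in the next sample. In the same order, Mpo was at 7.81 and 7.48 and Elane at 7.39 and 6.95, each ranked 1 and 2 of 53. Which cells these values come from was not tested. These libraries also ranked 4 and 1 of 53 for Mki67, with 8.14 and 8.63. Replicate 4 of HFD at 24 weeks stood apart in another way, with the highest value of 53 samples for Top2a (9.06), Kif23 (7.54), the macrophage gene Adgre1 (11.26), the plasma cell gene Jchain (9.14) and the haemoglobin gene Hbb-bs (14.49), but rank 46 for Ly6g (1.46). Counts of genes called that rest on the pair highest in Ly6g are given with and without it.

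Promoters of cell cycle genes carry a small set of known elements. CCAAT boxes are bound by NF-Y, the cell cycle homology region (CHR) by MuvB complexes in genes used in the G2 and M phases, and E2F sites by E2F proteins in genes used at the start of DNA synthesis. RefSeq promoters of GRCm38.p6, running from 250 bases before to 50 bases after the start of transcription, were at hand for 29 of the 36 genes (31 promoters), and not for Aurkb, Ccna2, Ccne2, Foxm1, Kif20a, Mcm4 and Tpx2. Searched on both strands, CCAAT was present in 25 of 31 promoters (80.6%), against 37.4% of 32851 promoters of all genes. The CHR, searched as TTTGAA or TTCGAA, was present in 17 of 31 (54.8%, against 19.2%), and all 17 also held a CCAAT box (54.8%, against 7.52%). The E2F site, searched as TTGGCGC or TTCCCGC, was present in 8 of 31 (25.8%, against 6.81%), and 2 of its 13 matches overlapped a CCAAT box. No motif was found in 6 of 31 (19.4%, against 47.2%). These matches describe letters in a window and were not tied to binding in the nerve.

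By role, CCAAT was about as frequent among 15 promoters of mitotic kinases, anaphase and spindle genes (12) as among 9 promoters of DNA replication genes (8). The other motifs are given as counts over few promoters, with no test. Among the 15 mitotic promoters, 11 held a CHR (73.3%) and 0 an E2F site, while among the 9 replication promoters 2 held a CHR (22.2%) and 5 an E2F site (55.6%). The 150 bases before the RefSeq start are printed for 6 genes because the results turn on them. They are Mki67, the reference for the comparisons between mice, Top2a and Kif11, which followed it most closely, Cenpe, which had the smallest adjusted p-value between HFD and SD mice, and Mcm6 and Mcm7, which stand for the replication genes. Each is written 5′ to 3′ on the strand of its gene, with coordinates in GRCm38, and capitals mark the motifs or their reverse complements.
Mki67, chr7:135716380-135716529, minus strand: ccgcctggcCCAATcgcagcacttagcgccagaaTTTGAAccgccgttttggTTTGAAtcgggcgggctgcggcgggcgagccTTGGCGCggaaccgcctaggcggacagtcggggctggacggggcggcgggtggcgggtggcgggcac
Top2a, chr11:99024190-99024339, minus strand: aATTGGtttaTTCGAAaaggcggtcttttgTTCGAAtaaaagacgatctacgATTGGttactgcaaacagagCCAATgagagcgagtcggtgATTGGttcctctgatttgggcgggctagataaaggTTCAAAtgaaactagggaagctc
Kif11, chr19:37376232-37376381, plus strand: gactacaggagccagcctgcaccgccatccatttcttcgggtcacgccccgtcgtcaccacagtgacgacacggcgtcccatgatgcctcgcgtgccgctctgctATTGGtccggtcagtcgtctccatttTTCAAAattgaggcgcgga
Cenpe, chr3:135212413-135212562, plus strand: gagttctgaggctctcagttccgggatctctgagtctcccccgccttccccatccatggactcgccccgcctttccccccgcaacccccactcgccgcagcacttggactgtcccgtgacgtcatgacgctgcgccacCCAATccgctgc
Mcm6, chr1:128359706-128359855, minus strand: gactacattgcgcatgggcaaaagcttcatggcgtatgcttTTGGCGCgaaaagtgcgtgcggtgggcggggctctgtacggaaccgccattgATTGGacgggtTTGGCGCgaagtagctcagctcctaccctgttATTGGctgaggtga
Mcm7, chr5:138171884-138172033, minus strand: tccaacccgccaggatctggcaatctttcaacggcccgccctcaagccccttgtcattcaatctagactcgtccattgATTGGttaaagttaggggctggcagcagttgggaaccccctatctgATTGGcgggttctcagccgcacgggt
In the printed Mki67 stretch, CHR matches lay at -116 to -111 and -98 to -93 from the start. A CCAAT box lay at -141 to -137 and an E2F match at -67 to -61. Top2a held 4 CCAAT boxes in the printed stretch, and CHR matches at -140 to -135, -120 to -115 and -23 to -18. Kif11 paired a CCAAT box at -45 to -41 with a CHR at -19 to -14, whereas the Cenpe stretch held a single CCAAT box at -12 to -8 and no CHR. Mcm6 held E2F matches at -109 to -103 and -46 to -40 beside a pair of CCAAT boxes, and Mcm7 held CCAAT boxes at -72 to -68 and -26 to -22 and neither of the other motifs in the printed stretch. Outside that stretch, this Mcm7 promoter held E2F matches at -165 to -159 and 21 to 27 and a CHR at -173 to -168. A promoter at another Mcm7 start held an E2F match at -113 to -107.

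**Figure D1:**
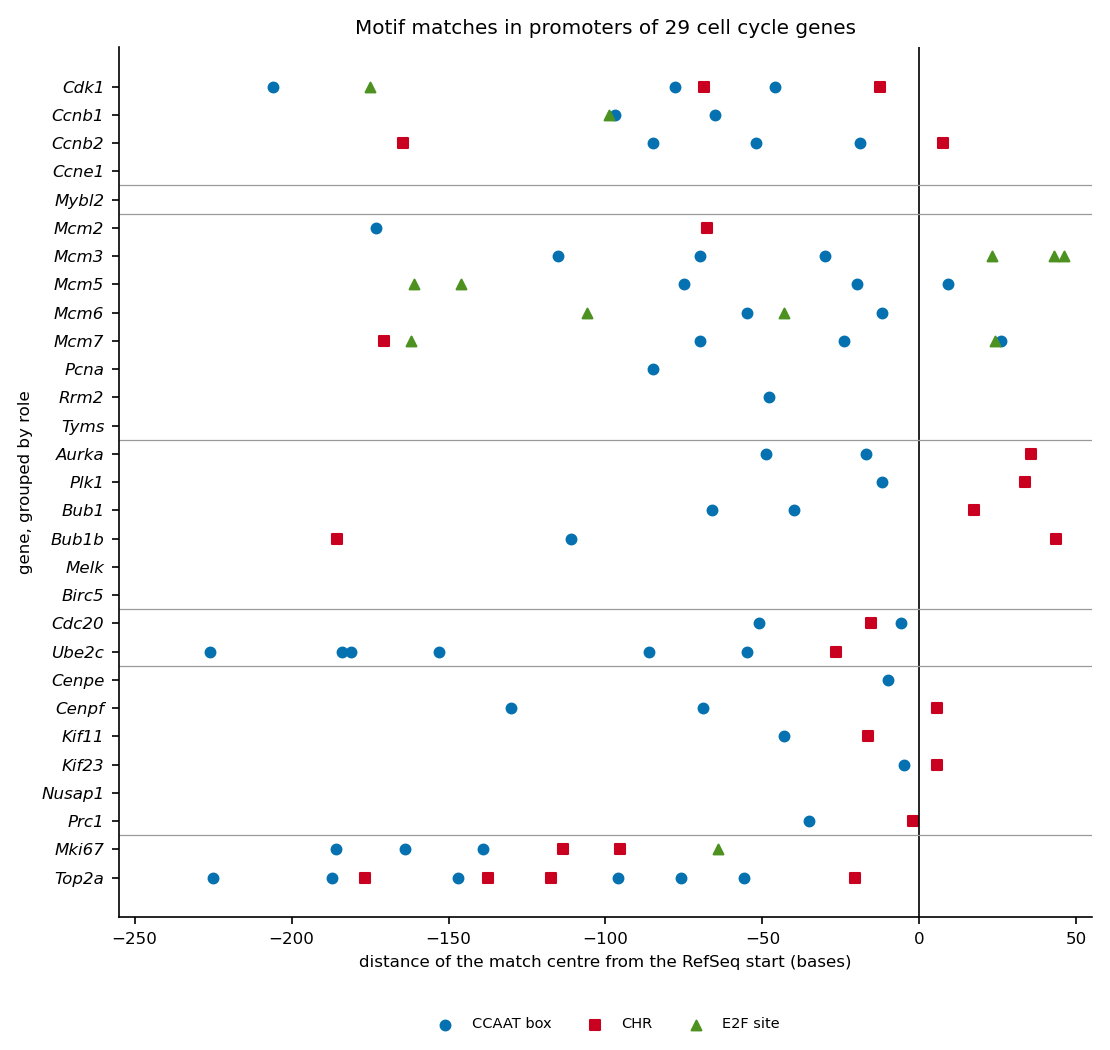
Positions of the CCAAT box, the CHR and the E2F site in the RefSeq promoters of 29 cell cycle genes (rows, grouped by role), as distance in bases from the start of transcription (x axis), at the first listed start of each gene. CHR matches are common among the mitotic genes (11 of 15 promoters with every start counted) and E2F matches among the DNA replication genes (5 of 9).

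Levels were compared per kilobase of exon, on the log2 scale, on the assumption that the deposited values were not already divided by length. The 5 highest levels of the set were those of replication genes. Pcna, the sliding clamp of DNA polymerase, had a mean level of 9.69, and the MCM helicase genes Mcm4, Mcm7, Mcm6 and Mcm3 had levels of 8.75, 8.14, 7.77 and 7.36, followed at 6.26 and 5.66 by Mcm5 and Mcm2. Cdc20, the activator of the anaphase-promoting complex, stood at 6.98 and the E-type cyclin Ccne2 at 6.05. Tyms and Rrm2, which make thymidylate and deoxynucleotides, had levels of 5.6 and 5.52. Most genes used in mitosis were lower, with 3.68 for Mki67, which coats mitotic chromosomes and is the usual marker of dividing cells, and 3.69 for Top2a, the topoisomerase that untangles sister chromatids. At the lower end were Kif23 (2.84), a kinesin of cytokinesis, Bub1 (2.5), a spindle checkpoint kinase, and Cenpf (2.0), a kinetochore protein.

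The median within-group SD was 0.178 on the log2 scale for the 9 replication genes (0.119 to 0.533) and 0.408 to 0.622 for the other 6 roles. Since low values vary more in these data, each gene's SD was also set against genes within 0.5 of its own mean log2 value. Top2a varied more between mice of a group than 86.5% of genes at its level, Mki67 than 84.8% and the mitotic cyclin genes Ccnb1 and Ccna2 than 84.4% and 83.8%. Mcm7 varied more than only 7.15% of genes at its level, Tyms than 9.12% and Pcna than 13.8%. The median over the 36 genes was 61.9%, and 9 of them were under 50%. The replication genes were mixed, with Rrm2 (78.1%), Mcm6 (70.0%) and Mcm2 (57.4%) above the midpoint and a median of 46.7%, while the median was 69.8% for the cyclins and Cdk1, 66% for the spindle genes and 62.1% for the mitotic kinases.

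Some values share reads with other genes, since the libraries were not stranded. Exons of Ube2c overlap Tnnc2 on the opposite strand over 22.8% of their length. Tnnc2 itself reached a log2 value of at most 1.21, in SD mice of 24 weeks, and had a Pearson r of -0.07 with Ube2c within groups. Kif20a shares 29.3% of its exonic length with Cdc23, Ccne2 shares 17.4% with Ints8, Mcm7 shares 12.6% with Ap4m1 and Cops6, Ccna2 shares 12.5% with Exosc9 and Prc1 shares 11.1% with Rccd1, each on the opposite strand. Of the 100-base stretches of their transcripts, 28.6% of Ccnb1, 20% of Mybl2 and 17.8% of Pcna also occur in transcripts of other annotated loci (Ccnb1-ps, Gm3320 and Pcna-ps2 among them), so the values of these genes are less certain. In GRCm38 with GENCODE M21, Mki67 lies on chromosome 7 from 135689784 to 135716361, Top2a on chromosome 11 from 98992943 to 99024189, Cenpe on chromosome 3 from 135212537 to 135273611 and Kif23 on chromosome 9 from 61915905 to 61946774, all protein-coding genes.

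No cell cycle gene of the set passed the adjusted threshold in any of 20 comparisons, which were 14 of 2 groups, 2 pooled ones and 4 tests of a difference between effects. Each was fitted with limma across all genes that reached the minimum, with Benjamini-Hochberg adjustment over all of them, and differences are between group means on the log2 scale. The median difference over all genes was -0.01 to 0.02 in the comparisons of 2 groups. The values below are therefore given as sizes with their errors, and the counts of genes with an unadjusted p-value under 0.05 are read against the same count over all genes. The p-values measure the spread between samples, each taken as 1 mouse, which the labels do not state.

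**Figure D2:**
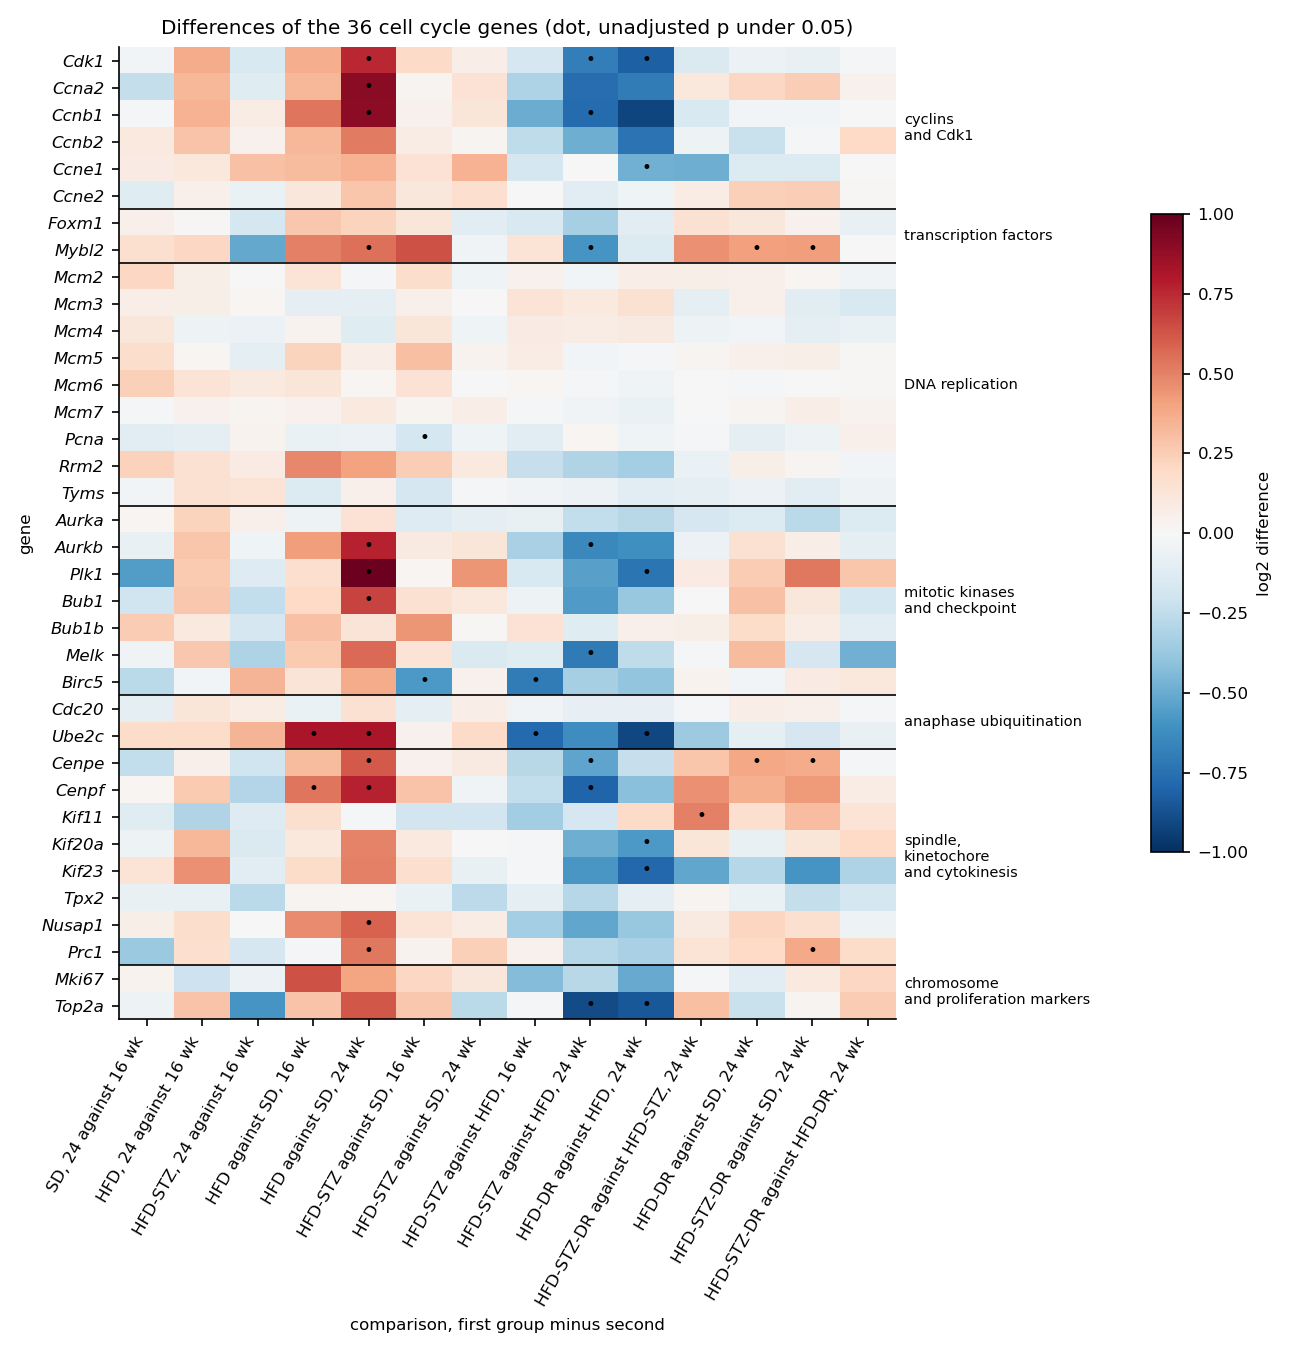
Log2 difference between group means for 36 cell cycle genes (rows, by role) in 14 comparisons of 2 groups (columns), coloured from -1 (lower in the group named first) to 1 (higher), with a dot where the unadjusted p-value is under 0.05. Of the 4 comparisons that use the HFD mice at 24 weeks, those with SD, HFD-STZ and HFD-DR mice of the same age hold 12, 8 and 7 dots. That with HFD mice of 16 weeks holds 0. The DNA replication rows are mostly pale, with Rrm2 as an exception.

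Age was examined first, between 16 and 24 weeks. In SD mice, limma called 0 of 36 genes at an adjusted and 0 at an unadjusted threshold of 0.05, where it called 0% and 10.5% of all 17788 genes tested, and 17 of 36 genes had the higher mean at 24 weeks. Mki67 values in the 5 SD mice of 16 weeks were 6.81, 6.73, 7.0, 7.03 and 6.52, and in the 8 of 24 weeks they had a lowest, median and highest value of 5.77, 6.94 and 7.77. The older mice lay on both sides of the younger ones. The difference was 0.03 (SE 0.26, adjusted p = 0.972 from limma). Top2a values were 6.54, 5.99, 6.92, 7.32 and 7.33 at 16 weeks, and 6.25, 6.64 and 7.65 were the lowest, median and highest at 24 weeks, for a difference of -0.05 (SE 0.28, adjusted p = 0.959 from limma). Both groups covered nearly the same range. The smallest p-values of the set belonged to the helicase gene Mcm6, higher by 0.24 at 24 weeks (SE 0.13, adjusted p = 0.512), and to Prc1, which bundles the microtubules of the central spindle, lower by 0.37 (log2 difference -0.37, SE 0.22, adjusted p = 0.548).

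In HFD mice, 30 of 36 genes had a higher mean at 24 than at 16 weeks, with a median difference of 0.15, but limma called 0 of 36 at either threshold, beside 0.0654% (adjusted) and 5.9% (unadjusted) of all genes. Mki67 had a lowest, median and highest value of 6.31, 7.42 and 8.63 at 16 weeks and of 5.90, 7.15 and 8.52 at 24 weeks, a difference of -0.21 (SE 0.38, adjusted p = 0.967). Top2a had 6.55, 6.97 and 7.86 at 16 weeks and 6.03, 7.33 and 9.06 at 24 weeks, a difference of 0.28 (SE 0.38, adjusted p = 0.958). The 2 markers thus differed in sign, and the older group was the more spread of the pair for each. Kif23 was higher by 0.46 (SE 0.25, adjusted p = 0.868) and Tyms by 0.15 (SE 0.10, adjusted p = 0.875). Macrophage markers were higher at 24 weeks in 7 of 7 (median 0.50), T cell markers in 4 of 4 (0.23), adipocyte markers in 6 of 6 (0.28) and Schwann cell markers in 0 of 8 (-0.18), and their part was not tested. Leaving out the 2 libraries with the highest Ly6g left 26 of 36 genes higher, and 0 passed the unadjusted threshold.

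In HFD-STZ mice, 13 of 36 genes had a higher mean at 24 weeks, and limma again called 0 at the adjusted or the unadjusted threshold, beside 0% and 12.5% of all genes. Mki67 values of the 5 mice of 16 weeks were 6.73, 7.31, 7.36, 7.30 and 6.43, and at 24 weeks the lowest, median and highest of 8 were 6.12, 6.94 and 7.66, a difference of -0.06 (SE 0.24, adjusted p = 0.927). Top2a was at 6.94, 7.16, 7.41, 7.56 and 6.35 at 16 weeks and at 4.71, 6.76 and 7.14 (lowest, median, highest) at 24 weeks, a difference of -0.59 (SE 0.35, adjusted p = 0.489). The value of 4.71 belongs to replicate 7 of HFD-STZ at 24 weeks and lies far below the others of that group (lowest 4.71, median 6.76). Mybl2, a transcription factor of the MuvB complex, followed with -0.51 (SE 0.31, adjusted p = 0.492).

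When the age change common to SD, HFD and HFD-STZ mice was fitted with the diet and STZ group as a factor, 4.57% of 18032 genes passed the adjusted threshold and 21.1% the unadjusted one, while of the 36 cell cycle genes 0 and 1 did. The 1 gene was Mcm6, higher by 0.16 at 24 weeks (SE 0.08, adjusted p = 0.234 from limma), followed by Tyms at 0.09 (SE 0.06, adjusted p = 0.375). Mki67 differed by -0.08 (SE 0.18, 95% confidence interval -0.46 to 0.29, adjusted p = 0.849) and Top2a by -0.10 (SE 0.21, -0.53 to 0.33, adjusted p = 0.841). The share of cell cycle genes at the unadjusted threshold was thus below that of all genes. Without the 2 libraries highest in Ly6g, 0 of 36 had an unadjusted p-value under 0.05.

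**Figure D3:**
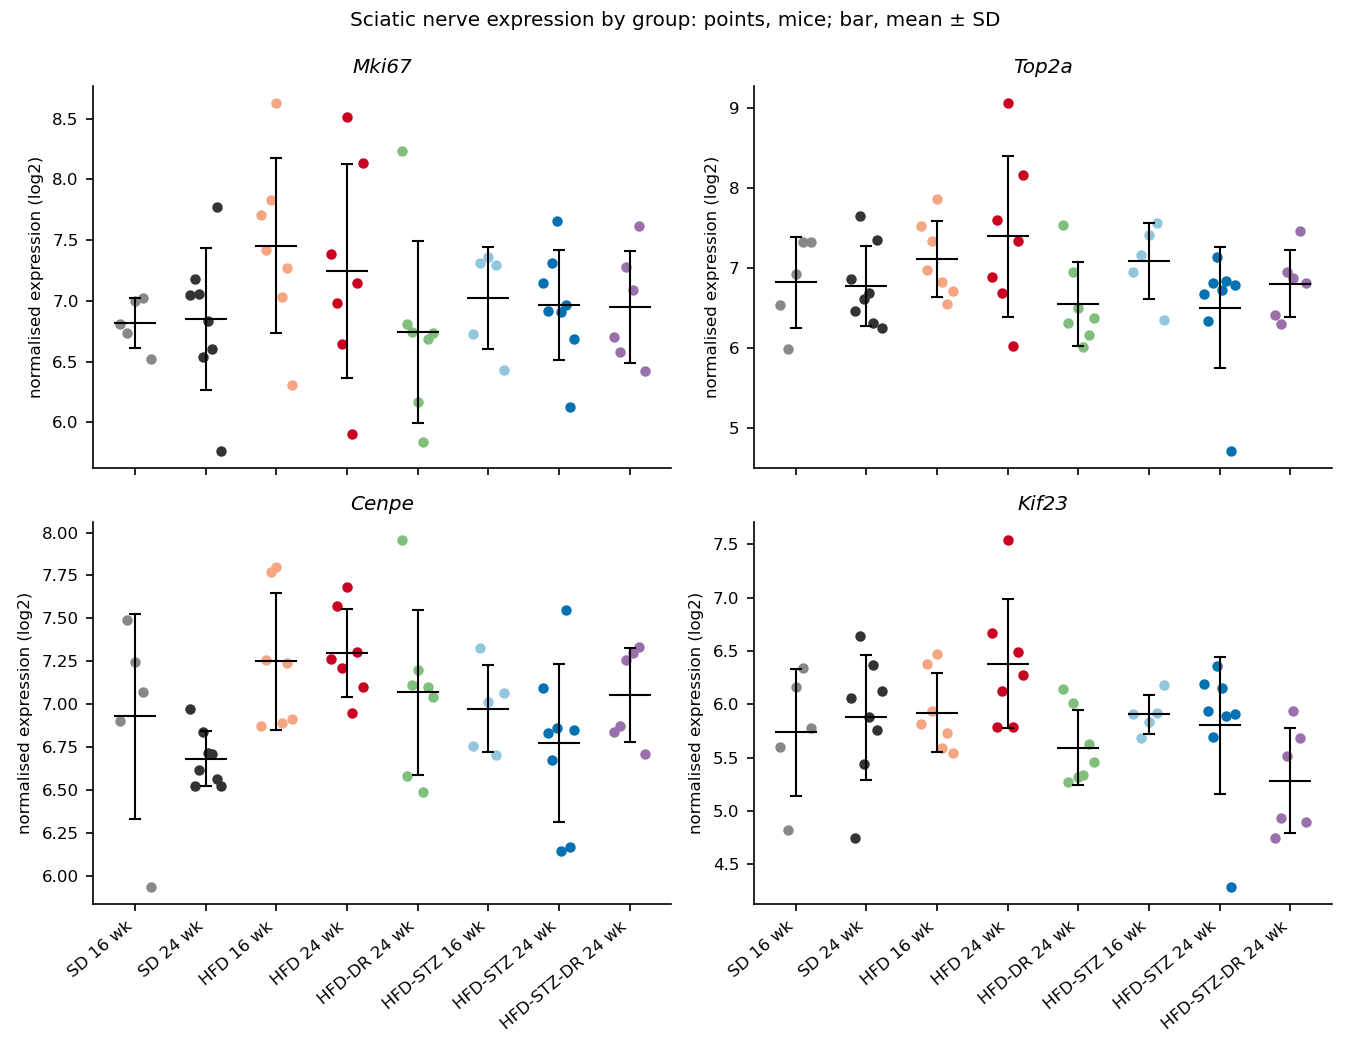
Log2 values of Mki67, Top2a, Cenpe and Kif23 in each of 53 samples (points) by group (x axis), with the group mean and SD (bar and whiskers). Mki67 means stay between 6.75 and 7.46 in all 8 groups, and Cenpe lies lowest and narrowest in SD mice at 24 weeks (6.68 ± 0.16, n = 8).

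The question of the diet comparison was whether a high-fat diet changes the nerve transcriptome. At 16 weeks, 30 of 36 cell cycle genes had a higher mean in HFD than in SD mice, with a median difference of 0.21. In limma's test 0 of 36 passed the adjusted threshold (0.00557% of all genes did) and 2 the unadjusted one, or 5.56%, below the 8.55% of all genes. Ube2c, the ubiquitin-conjugating enzyme of the anaphase-promoting complex, had values of 4.85, 5.62, 5.17, 5.69 and 5.65 in SD mice and of 5.62, 6.12 and 7.18 (lowest, median, highest) in 7 HFD mice, of which 6 lay above all SD mice. It was higher by 0.82 (SE 0.26, adjusted p = 0.462). The summed level of neutrophil markers had a lowest, median and highest value of 5.77, 6.21 and 6.94 in SD mice. In HFD mice these were 5.76, 7.52 and 12.09, the last in replicate 4. Of the marker lists in this comparison, adipocyte markers were higher in HFD mice in 6 of 6 (median 2.42), neutrophil markers in 4 of 4 (1.54), T cell markers in 4 of 4 (0.60), macrophage markers in 5 of 7 (0.30) and Schwann cell markers in 1 of 8 (-0.14), and the median of the summed level was 6.31 in SD and 7.28 in HFD mice for B and plasma cells and 10.29 and 12.51 for erythroid cells. Their part was not tested. Cenpf, at 4.78, 5.48, 6.08, 6.30 and 5.57 in SD mice and at 5.69, 6.20 and 6.62 in HFD mice, was higher by 0.54 (SE 0.24, adjusted p = 0.572), with groups that overlap. Without the 2 libraries highest in Ly6g, of which 1 is in this comparison, the unadjusted count was 1 and the median difference 0.14.

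At 24 weeks, 31 of 36 cell cycle genes had a higher mean in HFD than in SD mice, and the median difference was 0.40, where that of all genes was 0.01. In limma's test 0 of 36 passed the adjusted threshold, beside 0.121% of all genes, and 12 the unadjusted one, all higher in HFD mice. This is 33.3% of the set, where 9.05% of all genes did. Genes of the set varied together within groups, with a median Pearson r of 0.34 over all pairs. They can therefore pass or miss the threshold together, and counts over the set in any comparison do not number separate results. By role, the median differences were 0.64 for the cyclins and Cdk1, 0.57 for the mitotic kinases, 0.51 for the spindle genes and for the 2 markers, 0.48 for the anaphase genes, 0.39 for the transcription factors and 0.02 for the replication genes, of which 5 of 9 were higher. The higher means thus lay among genes of mitosis more than among those of DNA synthesis.

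Cenpe, the kinesin that carries chromosomes to the middle of the spindle, had the smallest adjusted p-value of the set in this comparison. Its values in the 8 SD mice had a lowest, median and highest of 6.52, 6.67 and 6.97, and in the 7 HFD mice of 6.95, 7.26 and 7.68. Of the HFD mice, 6 lay above all 8 SD mice. The difference was 0.62 (SE 0.12, 95% confidence interval 0.36 to 0.88, adjusted p = 0.0623 from limma). A 2-sided exact permutation test of this gene alone gave an unadjusted p = 0.000466. Cenpe was picked by its p-value on these same values, so the permutation test is not separate support. Mybl2 came next, with 4.71, 5.00 and 5.49 in SD mice and 4.93, 5.63 and 6.05 in HFD mice, a difference of 0.55 (SE 0.16, adjusted p = 0.269 from limma). Here 5 of 7 HFD mice lay above all SD mice. The Cenpe difference came just under the adjusted threshold in 2 alternative fits, with 0.62 (adjusted p = 0.0498) when each sample was centred on its median, and with 0.67 (adjusted p = 0.0447) without replicate 5 of HFD.

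The other genes with an unadjusted p-value under 0.05 were regulators of mitotic entry, the spindle and anaphase. Plk1, the Polo kinase of mitotic entry, had a lowest, median and highest value of 3.31, 4.46 and 5.15 in SD mice and of 4.56, 5.22 and 6.32 in HFD mice, and differed by 0.98. Ccna2 and Ccnb1, which encode cyclins A2 and B1, differed by 0.91 and 0.89, and their partner Cdk1 by 0.76. Ube2c differed by 0.82, and Aurkb, the kinase of the chromosomal passenger complex, and Cenpf each by 0.77. Bub1 differed by 0.67, Nusap1, which binds spindle microtubules, by 0.59 and Prc1 by 0.52. Others were higher without passing the unadjusted threshold, among them Top2a (0.62), Melk (0.57), a kinase of proliferating cells, the cyclin gene Ccnb2 (0.52), the kinesin gene Kif20a (0.50), Kif23 (0.50), Mki67 (0.40) and Birc5 (0.37), the survivin of the passenger complex. Aurka (0.15), the Aurora kinase of spindle poles, Cdc20 (0.15), the checkpoint gene Bub1b (0.13), Tpx2 (0.02), which activates Aurora A, and Kif11 (-0.02), the kinesin that drives spindle poles apart, had smaller differences. Foxm1, a transcription factor of the G2 genes, differed by 0.22, and the E-type cyclin genes Ccne1 and Ccne2 by 0.35 and 0.28. Of the replication genes, Rrm2 differed by 0.40 and Mcm2, Mcm3, Mcm4, Mcm5, Mcm6, Mcm7, Pcna and Tyms by -0.12 to 0.10.

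Part of this rested on 1 mouse. Replicate 4 of HFD at 24 weeks was the highest of its 7 mice for 29 of 36 genes and the lowest for 0. Without it, 7 of 36 genes had an unadjusted p-value under 0.05 in place of 12, and without any other single mouse the count was 8 to 15. Without the 2 libraries highest in Ly6g, of which 1 is in this comparison, it was 8, with 29 of 36 genes higher and a median difference of 0.27 in place of 0.40. Markers of blood-derived cells also differed. Between HFD and SD mice, 7 of 7 macrophage markers, 4 of 4 neutrophil and 4 of 4 T cell markers tested had the higher mean in HFD mice, with median differences of 0.20, 0.97 and 0.31. No count is given for the B and plasma cell and erythroid lists, and their summed levels are given below. The summed neutrophil level had a lowest, median and highest value of 5.54, 6.60 and 9.90 in SD mice and of 6.96, 7.75 and 12.29 in HFD mice, that of B and plasma cells 6.56, 6.86 and 7.94 against 6.88, 7.30 and 9.49, that of macrophages 13.08, 13.998 and 14.51 against 13.21, 14.11 and 14.96, and that of erythroid cells 9.66, 13.26 and 13.95 against 12.21, 12.96 and 15.54. The defining markers Ly6g, Cd3d, Cd8a and Mzb1 were under the minimum over all samples, and none was at 0 in every sample. Adipocyte markers were higher in 6 of 6 (median 1.09) and skeletal muscle markers in 0 of 6 (median -1.72). The lists of Schwann cells (2 of 8 higher), fibroblasts (3 of 7), endothelial cells (2 of 6), perineurial cells (2 of 4), pericytes (1 of 5) and skin epithelium (0 of 1) had medians of -0.08 to -0.01. Their part in the result was not tested.

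HFD-STZ mice were compared with SD mice next. At 16 weeks, 29 of 36 genes were higher in HFD-STZ mice (median 0.11). In limma's test 0 passed the adjusted and 2 (5.56%) the unadjusted threshold, both lower, beside 0% and 8.41% of all genes. Birc5 was at 6.25, 6.56, 6.39, 5.83 and 5.94 in SD mice and at 5.40, 5.78, 6.06, 5.76 and 5.12 in HFD-STZ mice, a difference of -0.57 (SE 0.21, adjusted p = 0.584). Pcna was at 11.03, 11.32, 11.04, 11.03 and 10.97 in SD mice and at 10.93, 10.97, 10.94, 10.77 and 10.91 in HFD-STZ mice, a difference of -0.18 (SE 0.08, adjusted p = 0.586). The Birc5 groups overlap, while the Pcna groups meet at 10.97 without crossing. At 24 weeks, 22 of 36 were higher in HFD-STZ mice (median 0.03), and limma called 0 at the adjusted or the unadjusted threshold, beside 0.0336% and 5.99% of all genes. The smallest p-values were those of Prc1 (0.24, SE 0.14, adjusted p = 0.832) and Plk1 (0.44, SE 0.28, adjusted p = 0.832).

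Adding STZ to the high-fat diet was the next comparison. At 16 weeks, 27 of 36 genes had a lower mean in HFD-STZ than in HFD mice (median -0.10). In limma's test 0 passed the adjusted and 2 (5.56%) the unadjusted threshold, beside 0% and 4.88% of all genes. Ube2c was at 5.00, 5.64, 5.46, 5.69 and 5.41 in HFD-STZ mice, all below the HFD median of 6.12, and differed by -0.78 (SE 0.24, adjusted p = 0.987). Birc5 had a lowest, median and highest value of 5.53, 6.41 and 6.97 in HFD mice and differed by -0.70 (SE 0.24, adjusted p = 0.987). Without the 2 libraries highest in Ly6g the unadjusted count was again 2 and the median difference -0.060.

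At 24 weeks, 32 of 36 genes had a lower mean in HFD-STZ than in HFD mice, with a median difference of -0.32. In limma's test 0 passed the adjusted threshold (0% of all genes) and 8 the unadjusted one, all lower, or 22.2% beside 5.59% of all genes. Melk had a lowest, median and highest value of 4.96, 5.10 and 6.35 in HFD mice and of 4.14, 4.46 and 5.23 in HFD-STZ mice, a difference of -0.71 (SE 0.23, adjusted p = 0.785). Cenpf had 5.91, 6.22 and 7.58 in HFD mice and 4.62, 5.69 and 6.24 in HFD-STZ mice, a difference of -0.80 (SE 0.27, adjusted p = 0.785). In both genes the groups overlap, and 7 of 8 HFD-STZ mice lay below the HFD median. The others were Top2a (-0.89), Ccnb1 (-0.77), Cdk1 (-0.69), Aurkb (-0.65), Mybl2 (-0.59) and Cenpe (-0.53). By role, the medians were -0.59 for the cyclins and for the markers, -0.54 for the mitotic kinases and -0.51 for the spindle genes, but -0.02 for the replication genes. The unadjusted count was 3 without replicate 4 of HFD, 4 without replicate 6 or 7, 14 without replicate 5, and 5 without replicate 7 or 8 of HFD-STZ. It was 4 without the 2 libraries highest in Ly6g, with a median difference of -0.25. Of the macrophage and neutrophil markers, 0 of 7 and 0 of 4 were higher in HFD-STZ mice, with medians of -0.40 and -0.93, while the Schwann cell median was 0.07. The median of the summed B and plasma cell level was 7.30 in HFD and 6.93 in HFD-STZ mice. Their part was not tested.

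Reversal asked whether a return to the control diet brings the nerve back. Between HFD-DR and HFD mice, 31 of 36 cell cycle genes had the lower mean after DR, with a median difference of -0.30. In limma's test 0 passed the adjusted threshold, beside 0.0108% of all genes, and 7 the unadjusted one, all lower after DR, or 19.4% beside 6.72% of all genes. Kif23 had a lowest, median and highest value of 5.79, 6.27 and 7.54 in HFD mice and of 5.27, 5.46 and 6.14 in HFD-DR mice, a difference of -0.79 (SE 0.25, adjusted p = 0.578 from limma). Plk1 had 4.56, 5.22 and 6.32 in HFD mice and 4.11, 4.53 and 5.53 in HFD-DR mice, a difference of -0.73 (SE 0.27, adjusted p = 0.642). The HFD-DR medians lay below all HFD mice in both genes, and the upper HFD-DR values within the HFD range. The other 5 were Ube2c (-0.91), Top2a (-0.85), Cdk1 (-0.81), Kif20a (-0.57) and Ccne1 (-0.48). The role medians were -0.72 for the cyclins, -0.67 for the markers and -0.03 for the replication genes.

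This count also moved with single mice. It was 2 without replicate 4 or 7 of HFD, 3 without replicate 1 and 4 without replicate 6, and in HFD-DR it was 13 without replicate 1, 3 without replicate 2, 4 or 5 and 4 without replicate 7. Without the 2 libraries highest in Ly6g it was 2, with a median difference of -0.26. HFD-DR replicate 1 was the highest of its 7 mice for 30 of 36 genes, with an Mki67 value of 8.23 beside a group median of 6.74, and its ranks among 53 samples were 46 for Adgre1, 38 for Jchain and 25 for Ly6g. After DR, 0 of 7 macrophage and 0 of 4 neutrophil markers were higher (medians -0.41 and -0.65), the median of the summed B and plasma cell level was 7.11 against 7.30, the adipocyte median was -1.27, that of skeletal muscle 2.58 and that of Schwann cells 0.06. Their part was not tested. The HFD mice of 24 weeks enter 4 comparisons of 2 groups, those with SD, HFD-STZ and HFD-DR mice and that with HFD mice of 16 weeks, so these values are not independent.

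In the T2D model the direction was mixed. The mean was higher after DR for 19 of 36 genes in HFD-STZ-DR mice set against HFD-STZ mice of 24 weeks (median 0.00). In limma's test 0 passed the adjusted and 1 the unadjusted threshold, beside 0.084% and 6.48% of all genes. Kif11 had a lowest, median and highest value of 4.99, 5.77 and 6.16 in HFD-STZ mice and of 5.52, 6.38 and 6.63 in HFD-STZ-DR mice, a difference of 0.50 (SE 0.23, adjusted p = 0.739), and 4 of 6 mice after DR lay above all HFD-STZ mice. Cenpf differed by 0.46 (SE 0.25, adjusted p = 0.862) and Kif23 by -0.52.

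Fitted over both models, the reversal effect gave 0 of 36 genes past the adjusted threshold, beside 1.11% of all genes. At the unadjusted threshold it gave 4, or 11.1% of the set, which is near the 11% of all genes, and all 4 were lower after DR. They were Kif23 (-0.65, SE 0.20, adjusted p = 0.111 from limma), Ccne1 (-0.48, SE 0.19, adjusted p = 0.273), Ube2c (-0.64) and Cdk1 (-0.48), and the count was 3 without the 2 libraries highest in Ly6g. The effect of DR differed between the models for 0 of 36 genes after adjustment and 3 before it, beside 0% and 1.71% of all genes. These were Top2a (difference of effects 1.14, SE 0.52, adjusted p = 1.00), Plk1 (0.82, SE 0.39, adjusted p = 1.00) and Kif20a (0.69), each with a lower mean in HFD-DR than in HFD mice. The unadjusted count was 1 without the 2 libraries highest in Ly6g. Replicate 7 of HFD-STZ at 24 weeks, at 8.14 for Ccne1 and 4.71 for Top2a, lay apart from the others of its group. The pooled fit and the test of a difference between models were not repeated without this mouse.

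After DR the mice were also set against SD mice of the same age. HFD-DR mice had a higher mean for 20 of 36 genes (median 0.05). In limma's test 0 passed the adjusted and 2 (5.56%) the unadjusted threshold, beside 0% and 5.14% of all genes. These were Mybl2 (0.41, SE 0.17, adjusted p = 0.925), with 4.98, 5.40 and 6.14 in HFD-DR mice, and Cenpe (0.39, SE 0.18, adjusted p = 0.925), with 6.49, 7.10 and 7.96. HFD-STZ-DR mice had a higher mean for 23 of 36 (median 0.05). Here 0 passed the adjusted and 3 (8.33%) the unadjusted threshold, beside 0% and 9.16% of all genes. They were Cenpe (0.37, SE 0.13, adjusted p = 0.412), Mybl2 (0.42, SE 0.16, adjusted p = 0.426) and Prc1 (0.38). Mybl2 had 5.06, 5.49 and 5.76 as its lowest, median and highest value in this group and Cenpe 6.71, 7.07 and 7.33, again above the medians of 5.00 and 6.67 in SD mice. The SD mice are shared by these comparisons. HFD-STZ-DR and HFD-DR mice differed in 0 of 36 genes at either threshold, beside 0% and 3.58% of all genes, and the smallest p-values were those of Melk (-0.48, SE 0.31, adjusted p = 0.999) and Mcm3 (-0.15, SE 0.10, adjusted p = 0.999).

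Whether the effects themselves changed with age was tested as a difference between effects. The HFD effect changed from 16 to 24 weeks by a median of 0.17 over the 36 genes, with 0 past either threshold in limma's test, beside 0% and 1.67% of all genes. Plk1 (0.82, SE 0.44, adjusted p = 1.00) and Prc1 (0.53, SE 0.34, adjusted p = 1.00) had the smallest p-values. Without the 2 libraries highest in Ly6g this count was also 0. The larger count of genes at 24 than at 16 weeks is therefore not a tested difference between the ages. The change of the HFD-STZ effect gave 0 at either threshold (0% and 4.68% of all genes), with Birc5 at 0.61 (SE 0.35, adjusted p = 0.756) and Mybl2 at -0.68 (SE 0.44, adjusted p = 0.756). The change of the STZ effect also gave 0 at either threshold (0% and 3.28% of all genes), with Mybl2 at -0.72 (SE 0.40, adjusted p = 0.876) and Cenpf at -0.56 (SE 0.35, adjusted p = 0.876), and 0 without those 2 libraries.

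Over all 8 groups, HFD mice at 24 weeks had the highest group mean for 25 of 36 genes, where 17.6% of 18069 genes had their highest mean in that group. The lowest mean fell to SD mice of 16 weeks for 8 genes and to SD mice of 24 weeks for another 8. Without replicate 4 of HFD the count was 16 of 36 (16.0% of genes), without any other HFD mouse of that age it was 20 to 30, and without the 2 libraries highest in Ly6g it was 21 (18.4% of genes). Neighbouring group means mostly lay within their spread. For Mki67 they were, from the highest, 7.46 ± 0.72 in HFD at 16 weeks, 7.25 ± 0.88 in HFD at 24 weeks, 7.02 ± 0.42 in HFD-STZ at 16 weeks, 6.97 ± 0.45 in HFD-STZ at 24 weeks, 6.95 ± 0.46 in HFD-STZ-DR, 6.85 ± 0.58 in SD at 24 weeks, 6.82 ± 0.21 in SD at 16 weeks and 6.75 ± 0.75 in HFD-DR mice (mean ± SD). No neighbours in this order differed by more than either SD. For Top2a the range of means was 6.50 ± 0.76 in HFD-STZ to 7.39 ± 1.00 in HFD mice, both at 24 weeks.

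**Figure D4:**
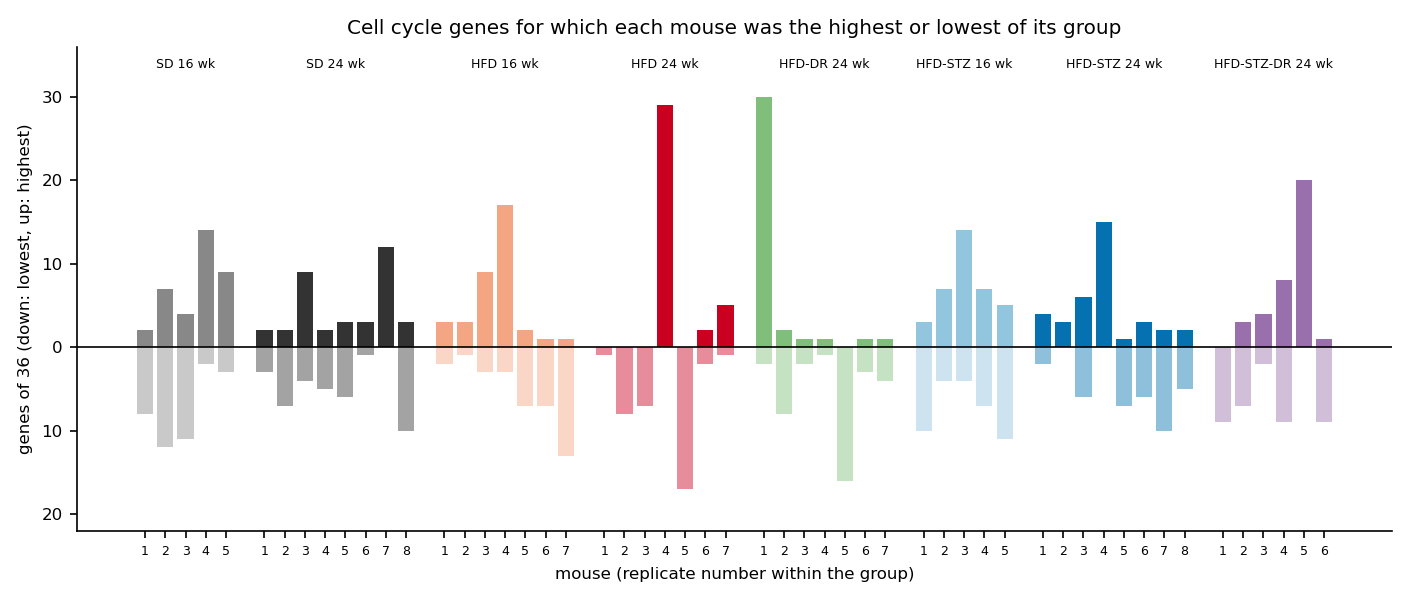
Number of the 36 cell cycle genes (y axis) for which each mouse was the highest (bars up) or the lowest (bars down) of its group, by replicate number within 8 groups (x axis). HFD replicate 4 at 24 weeks (29 genes) and HFD-DR replicate 1 (30 genes) stand out, and HFD replicate 5 at 24 weeks is the lowest of its group for 17.

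Many of the mitotic genes varied with Mki67 from mouse to mouse within groups. With values centred on the group mean over 53 samples, Mki67 had a Pearson r of 0.78 with Top2a (Spearman's rho 0.75), 0.77 with Kif11 (rho 0.75), 0.76 with Birc5 (rho 0.73), 0.76 with Ccnb2 (rho 0.66) and 0.75 with Ccna2 (rho 0.70). A permutation within groups gave p = 1e-05, the smallest that 100000 resamples can give, for each of these r and rho values except the rho of Ccnb2 (permutation p = 2e-05). Nusap1 (0.74), Ube2c (0.73), Rrm2 (0.72), Ccnb1 (0.71) and Cdk1 (0.69) followed. Without the 2 samples farthest from the median of Mki67, replicate 4 of HFD at each age, r was 0.74 for Top2a, 0.71 for Kif11, 0.72 for Birc5, 0.70 for Ccnb2 and 0.70 for Ccna2. Centred also on the run of consecutive library numbers, r was 0.80, 0.80, 0.78, 0.77 and 0.74. Of 35 relations computed, 18 reached an r of 0.5 (51.4%), where 81 of 18068 genes did (0.448%), and the median r over all genes was -0.01. Points share a library, so its quality and depth enter both axes.

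Most replication genes had lower values. Mcm4 had an r of -0.04 with Mki67, Pcna 0.09, Mcm7 0.10, and Tyms and Mcm3 0.21, and the cyclin gene Ccne1 had 0.03. By role, the median r was 0.70 for the cyclins and Cdk1, 0.57 for the mitotic kinases and for the spindle genes, 0.54 for the anaphase genes, 0.31 for the transcription factors and 0.21 for the replication genes, with Rrm2 as the exception among the latter. Among all pairs the median r was 0.34 (630 pairs, -0.33 to 0.79), and it was 0.52 among the spindle genes, 0.38 among the mitotic kinases, 0.37 among the replication genes and 0.14 among the cyclins and Cdk1. Of the 20 genes most like Mki67 over 53 samples, 12 belong to the set and 3 to a wider list of cell cycle genes (Kif4, Uhrf1 and Ckap2l), and the others include Mxd3, Aspm, Pbk and Spag5. Among promoters of genes with an r of at least 0.5, Mki67 included, 10 of 16 held a CHR (62.5%), and among those under 0.5 it was 7 of 15 (46.7%).

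**Figure D5:**
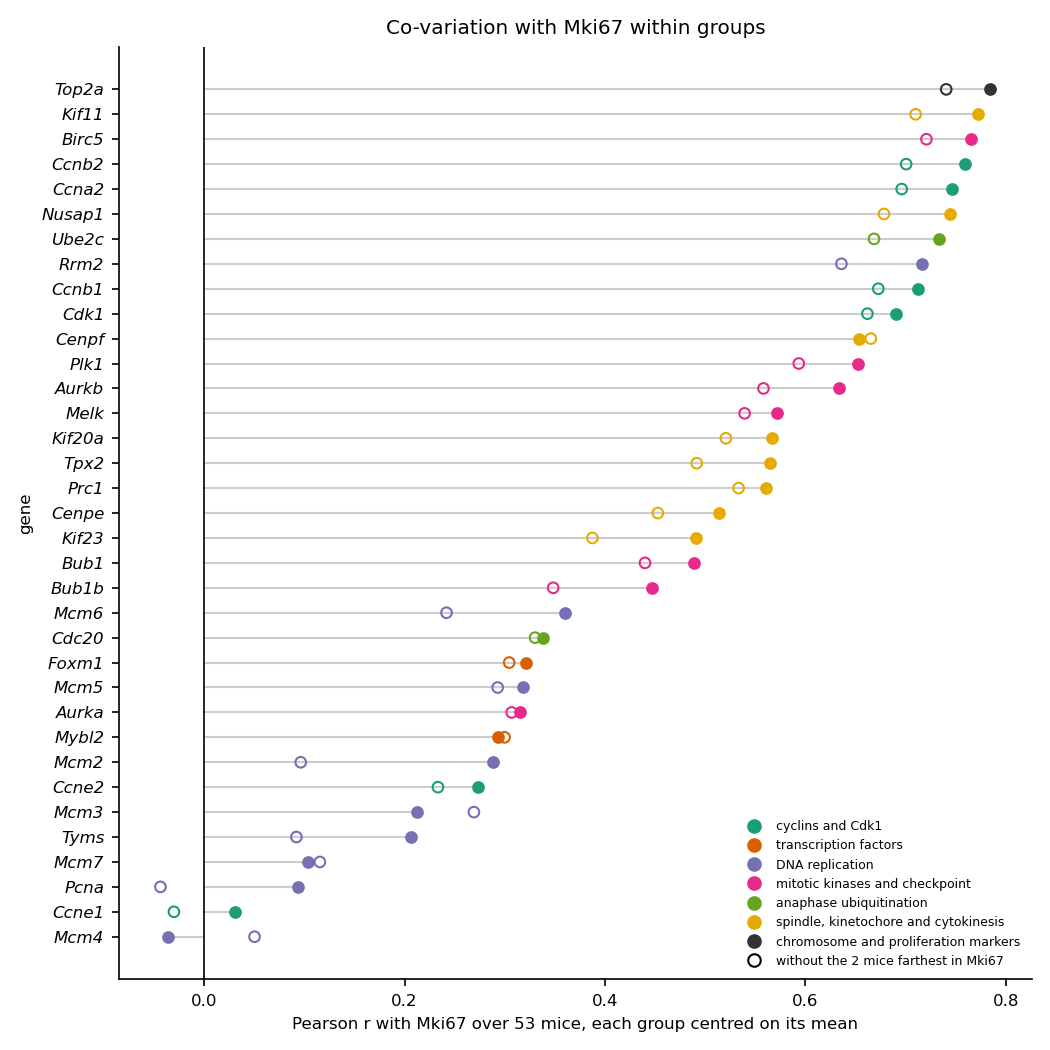
Pearson r of each of 35 cell cycle genes with Mki67 over 53 samples, centred on the group mean (filled points, coloured by role), and without the 2 samples farthest from the Mki67 median (open circles). Cyclins, spindle genes and mitotic kinases lie mostly above 0.5, from 0.78 for Top2a downwards, and most replication genes lie below 0.4, with Mcm4 at -0.04.

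Mki67 was also set against the summed level of each of 13 lists of cell type markers in the same way. The B and plasma cell list had an r of 0.54 (rho 0.45, permutation p = 0.0007 for r and 0.0026 for rho, Benjamini-Hochberg adjusted p = 0.0091 over 13 lists), and 0.44 without the 2 farthest samples. The neutrophil list had 0.40 (rho 0.22, adjusted permutation p = 0.107) and the T cell list 0.34 (rho 0.27, adjusted permutation p = 0.119). Macrophage (0.21), endothelial (0.21), fibroblast (0.14) and Schwann cell markers (-0.09) lay lower. In 4 of 8 groups the library highest in the neutrophil list was also the highest in Mki67. Which cells carry the Mki67 signal was not tested.

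Outside the set, 80 further cell cycle genes were listed, and 79 reached the minimum. In limma's test of HFD against SD mice at 24 weeks, 0 of 79 passed the adjusted and 9 the unadjusted threshold (11.4%, beside 9.05% of all genes), all higher, with a median of 0.14. By function, 30 of 33 further mitosis genes had the higher mean in HFD mice (median 0.33), as did 13 of 18 further replication genes (0.11), 10 of 15 E2F and pocket protein genes (0.06), 4 of 7 Cdk inhibitors (0.00) and 2 of 6 G1 cyclins and kinases (-0.02). Between HFD-STZ and HFD mice 8 of 79 passed the unadjusted threshold, all lower (median -0.14), and between HFD-DR and HFD mice 7 did, all lower (median -0.13). With age over SD, HFD and HFD-STZ mice, 2 of 79 passed the adjusted threshold, beside 4.57% of all genes. E2f5, a member of the E2F family that acts with pocket proteins in resting cells, was lower at 24 weeks, with a change of -0.17 (SE 0.05, adjusted p = 0.0222 from limma), from 9.74 ± 0.16 to 9.54 ± 0.12 (mean ± SD) in SD mice. Cks1b, a small subunit of Cdk complexes, rose by 0.23 (SE 0.07, adjusted p = 0.0494), from 8.45 ± 0.18 to 8.61 ± 0.17 in SD mice.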

How the data were processed

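RNA-seq was run on sciatic nerve from 53 samples in 8 groups, which were taken from the labels. Per the study's methods, low-quality reads were removed and the authors used HISAT2 for alignment to mm10 (GRCm38) and featureCounts for the count of reads on each gene. DESeq2 and FPKM values are also named, and versions are not given in the sources used here. Whether the deposited values derive from FPKM is not stated. The labels name a TruSeq mRNA kit and the methods SMART-Seq v4, so the kit is uncertain. The files deposited for each sample hold log2 values normalized between samples by a step that is not named in the sources used here. In 25 genes a value lay above 22, and these genes were left out; all other values fell between -2.39 and 20.96. The number of reads behind a value is unknown, so its counting precision is unknown too.

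Each comparison was fitted with limma (3.58.1, R 4.3.3; trend and empirical Bayes) on the samples of its own groups, over genes with a mean of at least 3.32 (log2 of 10), adjusted by Benjamini-Hochberg over every tested gene, at a threshold of 0.05. The code was tested on simulated data. Exact permutation tests (2-sided) were run on single named genes, 33 in all, and the value printed is not adjusted for that number. Correlations used values centred on group means, with 100000 permutations within groups (scipy 1.17.1, Python 3.11.15). Summed marker levels were sums on the linear scale, for 13 lists. Named were all 36 genes at least once, those past the adjusted threshold or else the 2 with the smallest p-value in each comparison, Mki67 and Top2a for age, and other cell cycle genes past the threshold. Genes and lists were chosen with earlier results of these data known. Alternatives were no filter, the minimum required of each sample, a joint fit of all 8 groups, this joint fit with a term for runs of consecutive library numbers (8 runs), robust fitting, centring on sample medians and leaving out each sample. Leaving out the 2 libraries highest in Ly6g was added after the data had been seen, as were the counts of highest group means without single libraries. Some marker genes of these lists are not reported here by name.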

Additional observations from a re-analysis of the deposited data

Results flagged for a closer look

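Dixon's test at the 95% level was applied to 136 groups of values (17 named genes in 8 groups). In 12 of them a sample lay farther from the others than the test allows. For independent tests chance gives about 1 in 20. These genes were mostly picked by their p-values and many varied together between mice, so the count cannot be read against that rate. Replicate 4 of HFD at 24 weeks was high for Cenpf (7.58), Melk (6.35) and Tyms (8.73). HFD-DR replicate 1 was high for Mki67 (8.23) and Ube2c (7.08). Replicate 7 of HFD-STZ at 24 weeks was low for Top2a (4.71) and Kif23 (4.29) and high for the E-type cyclin gene Ccne1 (8.14), and replicate 4 of HFD-STZ-DR was high for Melk (5.50). Pcna was high in replicate 2 of SD at 16 weeks (11.32), and low in replicate 4 of HFD-STZ at 16 weeks (10.77) and in replicate 1 of HFD-STZ at 24 weeks (10.70).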

How the results depend on the processing

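The count of cell cycle genes past the adjusted threshold was 0 in each comparison under every alternative fit except 2, where it was 1. Those were of HFD against SD mice at 24 weeks, when each sample was centred on its median and without replicate 5 of HFD (range without 1 mouse 0 to 1), the gene being Cenpe in both. The sign of small age differences changed. Mki67 in SD mice was -0.050 with median centring and -0.098 to 0.19 without 1 mouse, Top2a in SD mice was 0.021 with the run of library numbers in the fit and -0.26 to 0.076 without 1 mouse, Mki67 in HFD mice was -0.42 to 0.014 without 1 mouse, and Mki67 in HFD-STZ mice was 0.068 with the run in the fit and -0.21 to 0.062 without 1 mouse. Over all 3 models Mki67 was 0.00091 with the run in the fit. The cause was not tested. Unadjusted counts moved by over 1.5 times in 9 of 12 fits without 1 mouse for HFD against SD mice at 16 weeks (1 to 5), 8 of 10 for HFD-STZ against SD mice at 16 weeks (1 to 4), 11 of 15 for HFD-DR against SD mice (0 to 4) and 8 of 14 for HFD-STZ-DR against HFD-STZ mice (0 to 2). HFD-STZ-DR against SD mice gave 5 without replicate 4 of SD, and HFD-STZ against HFD mice at 16 weeks gave 4 without replicate 7 of HFD. The labels give no replicate numbers, so samples were not paired by them. Runs of consecutive library numbers were fitted as a term instead, and 0 genes of the set then passed the adjusted threshold in any comparison. The runs did not all hold the same groups. Some held samples of 24 weeks only, so run and age are partly confounded and this term cannot fully part them. The deposited log2 values hold no read counts, so which of the low genes are limited by depth is unknown.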
